A study of Mus musculus with 14 samples.

Results

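The genes described here are those of the major histocompatibility complex (MHC, named H2 in the mouse) and of antigen presentation. They were taken as every gene whose symbol in the spleen or the ovary comparison table starts with H2-, which gave 28 genes, plus 11 genes added by name (*B2m*, *Tap1*, *Tap2*, *Tapbp*, *Cd74*, *Ciita*, *Nlrc5*, *Psmb8*, *Psmb9*, *Psmb10* and *Erap1*). These 39 members are part of the 20139 genes of the comparison tables. RNA was measured in 8 spleens (4 wild-type, 4 L2-fKO) and 6 ovaries (3 wild-type, 3 L2-fKO), with 1 animal per library, and the question was what the loss of *Zfp36l2* does to the mRNAs of each organ. ZFP36L2 is a protein that binds AU-rich elements in mRNAs and promotes their decay. The L2-fKO mice (L2-cKO in the sample labels) are Zfp36l2-/-;CMV-Cre, and the wild-type littermates have both intact copies of *Zfp36l2* and carry the CMV-Cre transgene too. The loxP sites flank exon 2 of *Zfp36l2*, Cre came from the B6.C-Tg(CMV-Cre)1Cgn/J line, whose promoter is active in all tissues from the early embryo, and the loss is therefore not limited to a cell type. L2-fKO pups have anemia and pancytopenia and die young, the spleens were from 4 age-matched pairs that the labels do not tie to the replicate numbers, and the labels give no age for single animals. Of the spleens, 2 wild-type and 1 L2-fKO were from females and the rest from males. L2-fKO spleen 3 and L2-fKO ovary 1 came from the same mouse. The labels call the spleen source a spleen organoid, and the libraries were taken as the spleens of the study.

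The libraries held 39138010 to 45167464 counts in the spleen and 31052510 to 44270070 recovered reads in the ovary. *Zfp36l2* itself had a normalized count of 4362 to 7394 in wild-type and 278 to 405 in L2-fKO spleens, and of 4745 to 4906 and 758 to 1011 in the ovaries. A normalized count is the count over the library size after TMM scaling, at the mean size, in the spleen, and counts divided by the size factor of the authors in the ovary, and the scales of the organs are not shared. Counts of *Zfp36l2* cover the whole gene, so reads from outside exon 2 can be among those that remain, and where those reads lie was not tested. The spleens expressed the B cell, T cell and erythroid markers, and 6 of 11 ovary markers stayed below 10 there. In the ovaries all 11 ovary markers passed the filter. In L2-fKO spleens all 5 megakaryocyte and all 7 neutrophil markers fell (edgeR adjusted p below 0.05, beside 6.51% of all genes tested). The summed pancreatic acinar markers were 1634 to 19586 in wild-type and 1252 to 2165 in L2-fKO spleens.

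MHC class I molecules sit on almost all nucleated cells and show peptides from inside the cell to CD8 T cells. A class I molecule is a heavy chain (classical *H2-K1* and *H2-D1*, and many nonclassical chains of the Q, T and M regions) with the light chain B2M. Its peptides are cut by the immunoproteasome (PSMB8, PSMB9, PSMB10), carried into the endoplasmic reticulum by TAP1 and TAP2, trimmed by ERAP1 and loaded with the help of tapasin (TAPBP). MHC class II molecules are pairs of an alpha and a beta chain (*H2-Aa* with *H2-Ab1*, and *H2-Eb1*), made mainly by B cells, dendritic cells and macrophages for display to CD4 T cells. The invariant chain CD74 fills their groove until H2-DM exchanges it for peptide, a step that H2-O restrains. Both classes have promoters with a shared set of boxes, to which CIITA is recruited for class II and NLRC5 for class I, and interferon gamma raises both. In the spleen the B cells carry most of the class II.

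All 28 H2 members lie on chromosome 17 of GRCm38, between positions 33974659 and 37483552. *Zfp36l2* is on the same chromosome at chr17:84183931-84187947, 46.7 Mb from the nearest of them. Of the other members, *Tap1*, *Tap2*, *Tapbp*, *Psmb8* and *Psmb9* are also on chromosome 17 and *B2m*, *Cd74*, *Ciita*, *Nlrc5*, *Psmb10* and *Erap1* are elsewhere. Of the 39 members, 18 are class I genes of the H2 locus and 9 are class II genes. *H2-Ke6*, which encodes a steroid dehydrogenase (also called *Hsd17b8*), is a member by its name alone. RefSeq promoters (GRCm38.p6, 250 bases before to 50 after the start) were at hand for 29 members. The Y box of the shared promoter set was searched as CTGATTGG on both strands. It was found in 4 of 8 class II promoters (*H2-Aa*, *H2-Eb1*, *H2-Eb2* and *H2-Oa*), in 6 of 13 class I promoters (*H2-D1*, *H2-K1*, *H2-Q6*, *H2-Q7*, *H2-T23* and *H2-T-ps*), and in the stretch that *Psmb9* and *Tap1* share between their starts. Over all 27025 genes with a promoter, 4.7% held it. The stretches of 8 of these genes are shown because they carry the box that the classes share. They are written 5′ to 3′ along the gene, and capitals mark the Y box, which reads CTGATTGG in the class II genes and in reverse complement in the class I genes.
H2-Aa, chr17:34287850-34287919, minus strand: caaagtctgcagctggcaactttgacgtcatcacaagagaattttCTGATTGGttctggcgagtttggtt
H2-Eb1, chr17:34305760-34305829, plus strand: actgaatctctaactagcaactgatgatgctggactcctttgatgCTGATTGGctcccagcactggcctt
H2-Eb2, chr17:34325527-34325596, plus strand: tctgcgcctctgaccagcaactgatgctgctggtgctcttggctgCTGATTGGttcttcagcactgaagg
H2-Oa, chr17:34092288-34092357, plus strand: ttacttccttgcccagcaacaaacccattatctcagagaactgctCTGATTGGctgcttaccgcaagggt
H2-D1, chr17:35262996-35263065, plus strand: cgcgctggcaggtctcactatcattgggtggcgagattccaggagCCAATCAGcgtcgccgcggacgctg
H2-Q6, chr17:35424750-35424819, plus strand: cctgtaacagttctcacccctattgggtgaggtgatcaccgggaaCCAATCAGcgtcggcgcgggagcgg
H2-Q7, chr17:35439094-35439154, plus strand: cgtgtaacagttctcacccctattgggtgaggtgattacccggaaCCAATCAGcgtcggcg
H2-T23, chr17:36032729-36032798, minus strand: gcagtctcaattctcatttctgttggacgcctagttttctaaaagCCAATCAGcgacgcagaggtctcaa
The shorter CCAAT box ATTGG, which is part of the Y box, was in 8 of 8 class II and 11 of 13 class I promoters, and in 41.1% of all. The core of the interferon-stimulated response element (TTTC, any 2 bases, TTTC) was in the promoters of *H2-T22*, *H2-T23*, *B2m* and *Erap1*, and in 3.99% of all.

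The 7-mer UAUUUAU is a binding site of ZFP36L2. In the longest annotated 3′UTR it was present in 6 of the 35 members that have a 3′UTR (17.1%), against 28.8% of the 16037 genes with an annotated 3′UTR among those tested in either organ. The members were *H2-M2*, *H2-T24*, *H2-Eb2*, *H2-DMb1*, *H2-Ob* and *Nlrc5*. The median 3′UTR was 613 nt in the members and 1266 nt in all those genes. The 5-mer AUUUA was in 17 members (48.6%) and in 68.8% of all. The sites of 4 members are given with 10 bases on each side and with the 7-mer in capitals, for the member with the largest fall in the spleen and for 3 members whose changes are described with it. The stretch of *H2-T24* holds a second 7-mer that starts 4 bases after the first and overlaps it, and only the first is in capitals.
*H2-M2*: uuuaaagggaUAUUUAUacacacacac
*Nlrc5*: uuuuuuuaagUAUUUAUaagcaccuuc
*H2-Eb2*: ccuuuuugugUAUUUAUuuggccauuu
*H2-T24*: uuuuaagauuUAUUUAUuuaucuacua
In the spleen *H2-M2*, *H2-T24*, *H2-Eb2* and *H2-Ob* had log2 fold changes of L2-fKO over wild type of -2.29, -0.51, -1.11 and -0.69, *H2-DMb1* of 0.14 and *Nlrc5* of 1.10. Only the change of *H2-M2* among these passed the test described next.

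Levels were first set side by side in the wild-type organs, as CPM per kb of exon (counts scaled to library size and to the length of all exons of a gene merged), with no test because the organs were normalized apart and the ovary depth covers the genes of its table alone. In the spleen *B2m* (670.2 ± 176, SD, n = 4) and *Cd74* (576 ± 349.9) led the members, followed by *H2-D1* (223 ± 62.8), *H2-Eb1* (134 ± 69.4), *H2-K1* (131 ± 44.6), *H2-Ab1* (116 ± 59.4) and *H2-Aa* (72.9 ± 38.6). The ranges over the animals overlapped for *B2m* and *Cd74*, and for *H2-Eb1*, *H2-K1* and *H2-Ab1*, and the order of these genes within a library was not compared. The order depends on the length used: per kb of the longest transcript, a setting chosen after seeing the data, *Cd74* (686 ± 417) was above *B2m* (670.2 ± 176), and *H2-Ab1* (245 ± 126) was above *H2-K1* (206 ± 69.9) and *H2-Eb1* (156 ± 80.8). In the ovary the order was *B2m* (209 ± 28.8, SD, n = 3), *H2-K1* (99.7 ± 19.6), *H2-D1* (62.3 ± 11.1), *Tapbp* (23.2 ± 1.66) and *H2-Q4* (21.8 ± 4.96), and class II was low, with *Cd74* at 4.82 ± 1.35 and *H2-Aa* at 0.813 ± 0.210. The spleen level was 119.6 times the ovary level for *Cd74*, 89.7 times for *H2-Aa*, 54.9 times for *H2-Eb1* and 49.1 times for *H2-Ab1*. For *H2-K1* it was 1.32 times, for *H2-D1* 3.57 times and for *B2m* 3.20 times. Among the nonclassical class I genes *H2-T24* (27.4 times) and *H2-T23* (11.6 times) were on the side of the spleen, while *H2-Q4*, *H2-Q6* and *H2-Q7* were at 0.971, 0.852 and 0.907 times and *H2-Q10* at 0.449 times. *Nlrc5*, the class I activator, stood at 1.59 times and *Ciita*, the class II activator, at 24.6 times.

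**Figure D1:**
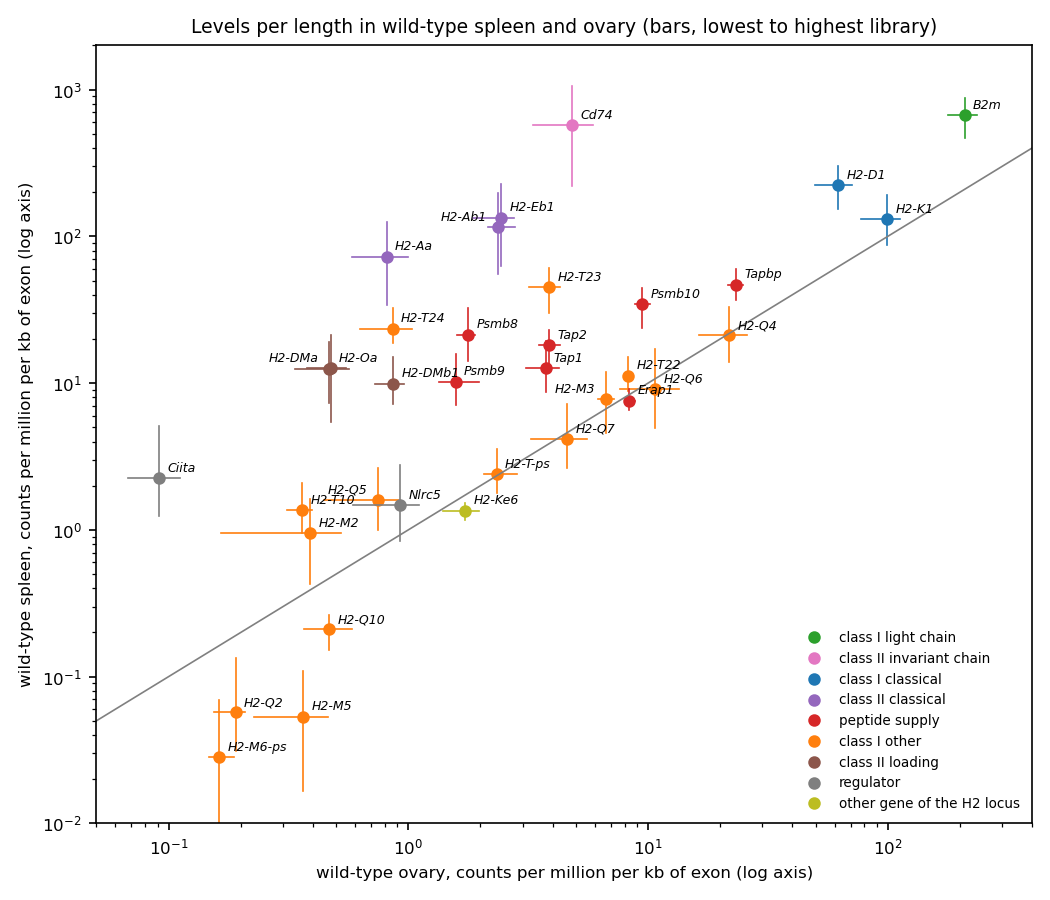
Mean level of each member in wild-type spleen (vertical axis, n = 4) against wild-type ovary (horizontal axis, n = 3), both in CPM per kb of exon on log axes, with bars from the lowest to the highest library (a lowest library at 0 runs off the axis) and a grey line where the levels are equal. Class II genes and *Cd74* lie far above the line, and *H2-K1*, at 1.32 times, lies close to it.

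In the spleen, 37 of the 39 members passed the filter, 10 or more counts in 4 or more of the 8 libraries, and entered the quasi-likelihood test of edgeR, with p-values adjusted by Benjamini-Hochberg over all 16911 genes tested. *H2-M5* and *H2-M6-ps* were below the filter. At an adjusted p below 0.05, 2 members were lower in L2-fKO (*H2-M2* and *H2-Q10*) and none was higher. Of all genes tested, 6.51% were lower and 6.89% were higher by that rule, so the share of the members that passed, 5.41% lower and 0 higher, was not above the background. With an absolute log2 fold change above 1 as well, the same 2 members were called lower, against 3.11% of all genes. Without adjustment, 5 of the 37 members had an edgeR p below 0.05, against 4910 of all 16911 genes tested. The DESeq2 Wald test passed 3 members, all lower (these 2 and *H2-Eb2*), against 9.50% of all genes lower by DESeq2. The 37 members had a median log2 fold change of -0.10, beside -0.02 for all genes tested, and *H2-M2* and *H2-Q10* were also the only members for which the groups did not overlap, against 10.8% of all genes with every L2-fKO library below every wild-type library and 9.61% with every one above. By class, the 16 class I genes tested had a median log2 fold change of 0.41, with 10 above 0 and 6 below. The 9 class II genes had a median of -0.42, with 1 above 0 and 8 below. Of all genes tested, 47.8% were above 0. The class I median rested on 1 library, L2-fKO spleen 4, without which it was -0.05 while the class II median was -0.78. The class II median in turn leaned on wild-type spleen 1, without which it was -0.13 while the class I median was 0.59. In the male libraries only, the class II median was -0.20.

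**Figure D2:**
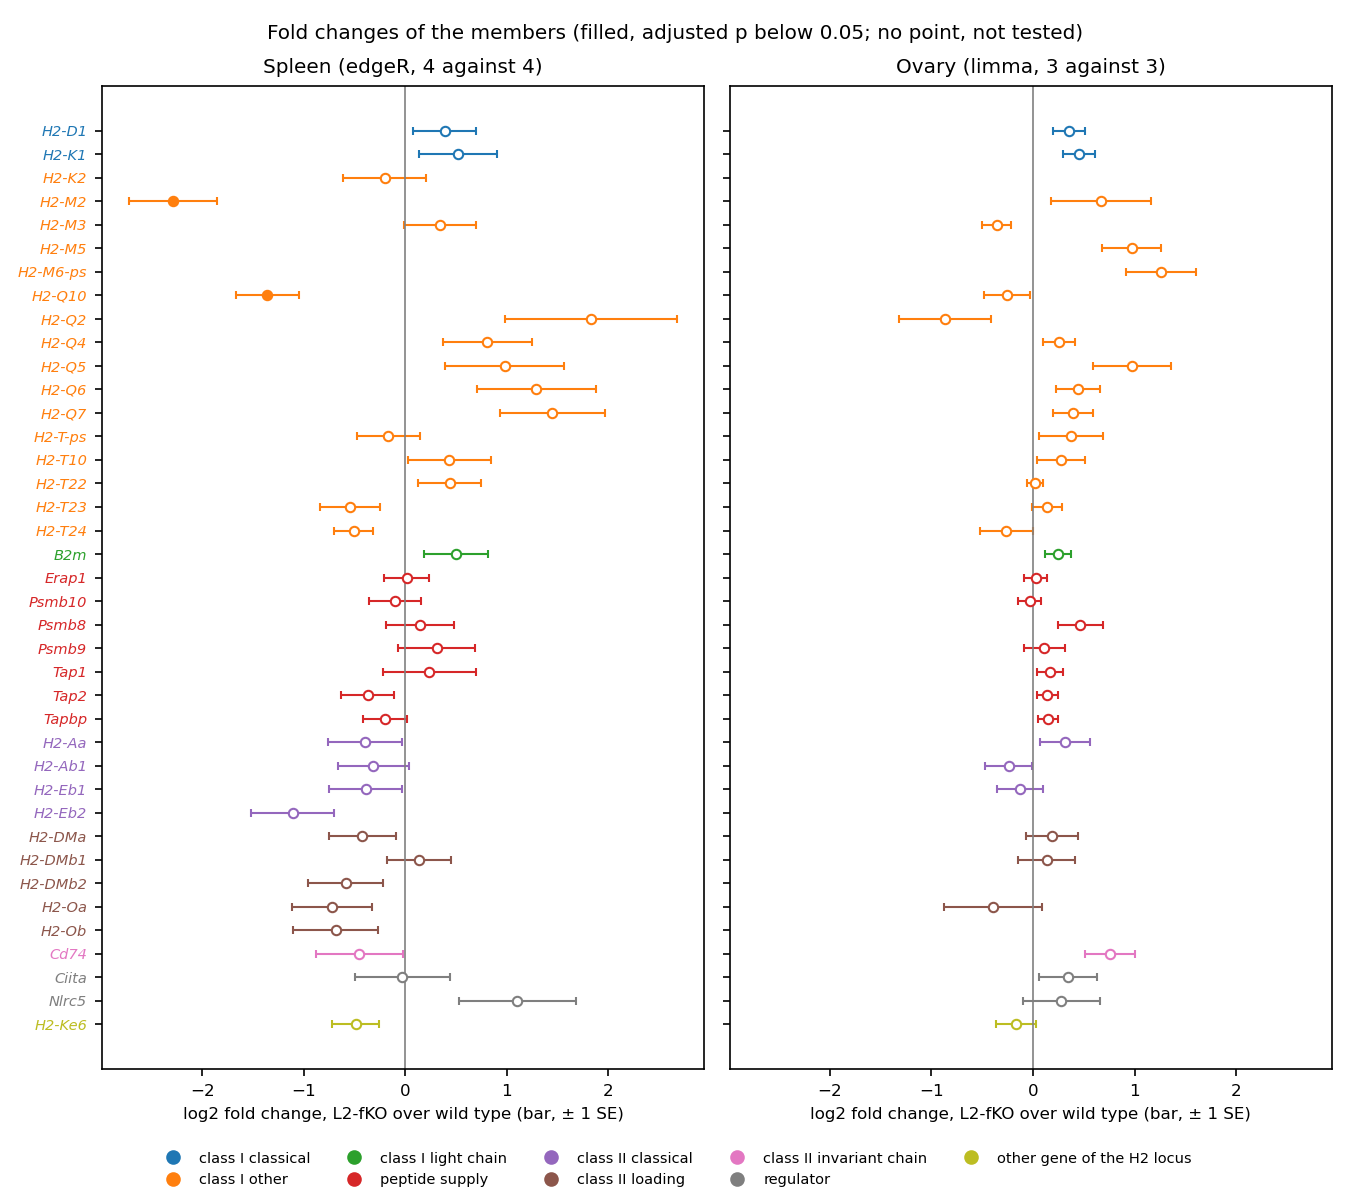
Log2 fold change of each member, L2-fKO over wild type, with 1 standard error on each side, in the spleen (left, edgeR) and the ovary (right, limma), grouped and coloured by class; filled points have an adjusted p below 0.05. *H2-M2* (-2.29) and *H2-Q10* (-1.36) in the spleen are the only filled points.

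The spleens of a group differed widely in these genes, and a pair of libraries stood apart. Among the wild types, spleen 1 gave the highest value for 34 of the 37 members and spleen 3 the lowest for 30. L2-fKO spleen 4 was the highest L2-fKO library for 34 members, at a median of 2.36 times the mean of the other 3 for class I genes and 1.82 times for class II genes. The ratio was highest for *H2-Q5* (4.98) and *Nlrc5* (4.68). Wild-type spleen 1 was at a median of 1.74 times the mean of the other 3 wild types for class I and 2.11 times for class II. Over all genes tested, the deviations of these 2 libraries from their group means had a correlation of 0.437, the highest of the 16 pairs of a wild-type with an L2-fKO spleen, across genes that are not independent of each other. Wild-type spleen 1 is from a female and L2-fKO spleen 4 from a male. Some markers of other cell types moved with them. The summed B cell markers were 149782, 74505, 32757 and 62847 in wild-type spleens 1 to 4 and 77483, 67283, 51729 and 127373 in L2-fKO spleens 1 to 4. None of the 12 B cell markers passed the test. The summed T cell markers were 12625, 11082, 4702 and 10700.0 in the wild types and 9449, 7748, 6420.0 and 12968 in L2-fKO, so both sums were highest in these 2 libraries within each group. The summed erythroid markers, at 410482, 387270.0, 440198 and 469414 in the wild types and 595843, 564779, 766645 and 365012 in L2-fKO, were lowest of the L2-fKO group in spleen 4. All 39 members together took 0.258% to 0.689% of the counts of a wild-type spleen and 0.315% to 0.875% of an L2-fKO spleen, with wild-type spleen 1 and L2-fKO spleen 4 at the top of each range. The part of the other cells in the members' levels was not tested. For members whose libraries are printed below, the fold change is also given without both libraries, a setting chosen after seeing the data. In that setting the class I median was 0.13 and the class II median -0.43, and 36 members were tested, with 2 higher at an adjusted p below 0.05 (*H2-Q7* and *Nlrc5*, against 9.07% of all genes) and 4 lower (*H2-M2*, *H2-Q10*, *H2-T23* and *Tap2*, against 8.44%).

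**Figure D3:**
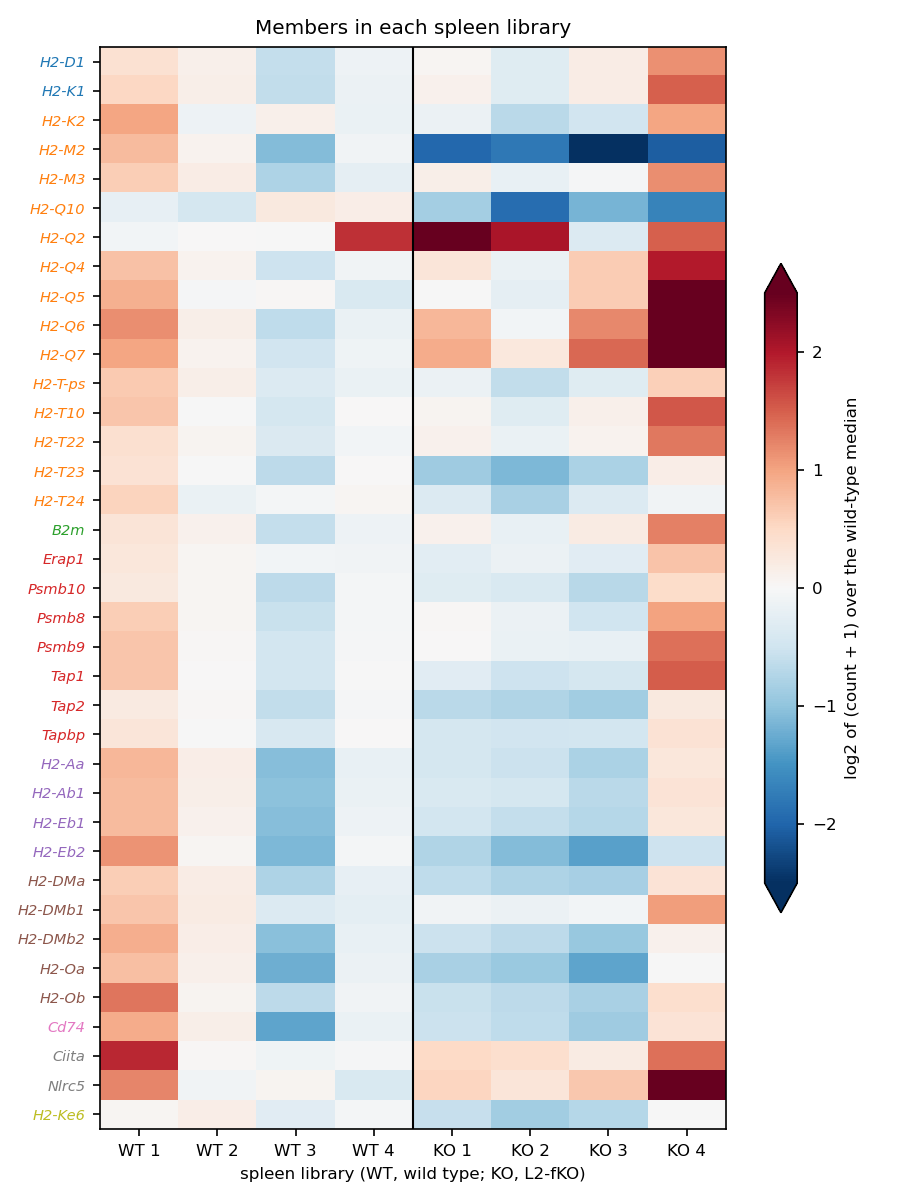
Each tested member (rows, coloured by class as in the plot of fold changes) in each spleen library (columns), as the log2 of its normalized count plus 1 over the median of the wild-type libraries; the colour scale ends at 2.5 in each direction. Wild-type spleen 1 and L2-fKO spleen 4 are red for most members, and *H2-M2* and *H2-Q10* are blue in all 4 L2-fKO libraries.

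*H2-M2*, at chr17:37480851-37483552 on the minus strand, is a nonclassical class I heavy chain gene of the M region at the far end of the locus. Its normalized counts were 105, 63.6, 27.8 and 56.6 in wild-type spleens 1 to 4 and 14.6, 16.6, 6.52 and 13.6 in L2-fKO spleens 1 to 4. Every L2-fKO library was below every wild-type library, the lowest wild type being spleen 3. The means were 63.2 ± 31.7 in wild type and 12.8 ± 4.40 in L2-fKO (SD, n = 4), with -2.29 as log2 fold change (standard error 0.43, edgeR adjusted p = 0.00856). L2-fKO spleen 4, which was high for most members, was not high here. *H2-Q10*, at chr17:35470089-35474563, encodes a class I chain that is secreted, mainly by the liver. It had 34.9, 29.3, 47.7 and 45.5 in the wild types and 21.9, 9.97, 17.4 and 11.9 in the L2-fKO spleens, again with no overlap. The log2 fold change was -1.36 (standard error 0.31, edgeR adjusted p = 0.0187), with means of 39.3 ± 8.73 in wild type and 15.3 ± 5.41 in L2-fKO (SD, n = 4). Both genes are low in the spleen, and their wild-type libraries alone were enough for the filter. The lowest raw count was 6 for *H2-M2*, in L2-fKO spleen 3, and 9 for *H2-Q10*, in L2-fKO spleen 2. Neither gene was therefore tested when 10 counts were asked of every library. The exact permutation test over the 8 animals gave p = 0.0286 for each, two-sided, the smallest that 4 against 4 allow. That value is fixed once the groups do not overlap, so it is no further support. Without wild-type spleen 1 and L2-fKO spleen 4 the log2 fold changes were -1.96 (edgeR adjusted p = 0.0204) and -1.31 (edgeR adjusted p = 0.0394). *H2-Q10* did not pass in the male libraries only (-1.36, edgeR adjusted p = 0.0655), nor without wild-type spleen 4 (edgeR adjusted p = 0.0619) or L2-fKO spleen 2 (edgeR adjusted p = 0.0598). Of the 50-base windows of *H2-Q10*, 19.7% also occur in another gene, for *H2-M2* 1.67%, so the unique-read count of *H2-Q10* is the less certain.

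The classical class I chains were abundant and did not pass the test. *H2-K1* had 23343, 17840.4, 10628 and 14585 in the wild types and 17404, 13157, 18545 and 45826 in the L2-fKO spleens, and 0.52 as log2 fold change (standard error 0.38, edgeR adjusted p = 0.407). L2-fKO spleens 1 to 3 lay inside the wild-type range and spleen 4 far above it. *H2-D1* showed the same order, with 32445, 27234, 16628 and 22787 in the wild types, 25877, 20148, 28536 and 54996 in L2-fKO and a log2 fold change of 0.39 (edgeR adjusted p = 0.448). *B2m*, the light chain that all class I molecules need, had 31705, 27548, 16865 and 23384 in the wild types and 27312, 22387, 29429 and 61276 in the L2-fKO spleens. Its log2 fold change was 0.50 (standard error 0.32, edgeR adjusted p = 0.333). Without wild-type spleen 1 and L2-fKO spleen 4 the values were 0.19, 0.16 and 0.22 for *H2-K1*, *H2-D1* and *B2m*, none past the threshold. Per length, *B2m* stood at 1.80 to 1.97 times the sum of *H2-K1* and *H2-D1* in the wild types and 1.93 to 2.12 times in L2-fKO, so the ratio ranged far less than the levels themselves.

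Among the Q genes, *H2-Q6* and *H2-Q7* encode Qa-2, a class I molecule that can be held in the membrane by a lipid anchor. *H2-Q7* was picked out after its values were seen, and it had 1287, 694, 468 and 604 in the wild types and 1239, 782, 1759.8 and 4545 in the L2-fKO spleens. L2-fKO spleen 4 was the highest of all, and L2-fKO spleens 1 and 2 lay within the wild-type range. The log2 fold change was 1.45 (standard error 0.52, edgeR adjusted p = 0.0951), and without wild-type spleen 1 and L2-fKO spleen 4 it was 1.10 (standard error 0.28, edgeR adjusted p = 0.0324). The ratio of *H2-Q7* to *H2-K1* counts within a library was 0.0551, 0.0389, 0.0440 and 0.0414 in wild-type spleens 1 to 4 and 0.0712, 0.0594, 0.0949 and 0.0992 in L2-fKO spleens 1 to 4. No wild-type spleen reached the lowest L2-fKO spleen. In the ovary the same ratio was 0.0613, 0.0659 and 0.0719 in the wild types and 0.0738, 0.0505 and 0.0689 in L2-fKO, and the groups overlapped. *H2-Q6* had a log2 fold change of 1.29 and *H2-Q4* and *H2-Q5* of 0.81 and 0.98, none past the threshold. These genes are close copies, and 28.5% of the 50-base windows of *H2-Q7* and 35.0% of those of *H2-Q6* occur in another gene, so unique reads can be lost or misplaced among them. *H2-Q2* ranged from 2.17 to 51.2 in L2-fKO and its log2 fold change of 1.83 (standard error 0.85) is a fit to few reads.

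The T and M genes had fold changes in both directions, and of those tested *H2-M2* alone passed. *H2-T23* encodes Qa-1, which presents leader peptides of other class I chains to NK cell receptors. Its counts were 7397, 5685, 3635 and 5764 in the wild types and 3079, 2639.6, 3313 and 6403 in L2-fKO. L2-fKO spleens 1 to 3 were below every wild-type library and spleen 4 was second to wild-type spleen 1. With all libraries its log2 fold change was -0.54 (edgeR adjusted p = 0.256), and it was -0.74 (standard error 0.18, edgeR adjusted p = 0.028) without wild-type spleen 1 and L2-fKO spleen 4. It was picked out after its values were seen. *H2-T24* was at -0.51 (edgeR adjusted p = 0.112), *H2-T22* at 0.44, *H2-T10* at 0.43, *H2-M3* at 0.34 and the pseudogenes *H2-T-ps* and *H2-K2* at -0.17 and -0.20. None of these passed, and 58.5% and 50.1% of the windows of *H2-T22* and *H2-T10* are shared with other genes. *H2-Ke6* was at -0.49 (edgeR adjusted p = 0.198), and 96.3% of its windows occur in another annotated gene.

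None of the 7 genes that supply peptides to class I passed the test. *Tap1* encodes one chain of the peptide transporter. It had 4431, 2738, 1987 and 2727 in the wild types and 2249, 1903, 2019 and 7826 in L2-fKO, and 0.24 as log2 fold change (standard error 0.46, edgeR adjusted p = 0.771). Without L2-fKO spleen 4 it was -0.53 (edgeR adjusted p = 0.149), and it was -0.27 without wild-type spleen 1 and L2-fKO spleen 4 (edgeR adjusted p = 0.213). *Tap2*, the partner chain, was at -0.37 (edgeR adjusted p = 0.386) with all libraries and at -0.59 (edgeR adjusted p = 0.0468) without both. Per length of all exons merged, the *Tap1* to *Tap2* ratio was 0.842, 0.596, 0.677 and 0.619 in the wild types and 0.793, 0.715, 0.825 and 1.46 in L2-fKO. Per length of the longest transcript it was 0.759 to 1.07 in wild type and 0.911 to 1.87 in L2-fKO, so which chain had the higher level depended on the length used. By either length L2-fKO spleen 4 had the highest ratio. *Tapbp* was at -0.20, *Erap1* at 0.02, and the immunoproteasome subunits *Psmb8*, *Psmb9* and *Psmb10* at 0.14, 0.31 and -0.10. Set against its constitutive counterpart *Psmb5* per length, *Psmb8* had a ratio of 0.258, 0.141, 0.117 and 0.136 in the wild types and 0.144, 0.129, 0.0939 and 0.409 in L2-fKO. L2-fKO spleen 4 and wild-type spleen 1 held the highest ratios, and the other 6 libraries lay between 0.0939 and 0.144.

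*Nlrc5* encodes the activator of class I genes. It had 981, 396, 442 and 322 in the wild types and 611, 515, 669 and 2799 in L2-fKO. Wild-type spleen 1 and L2-fKO spleen 4 were each the highest of their group by far, and L2-fKO spleens 1 to 3 were above wild-type spleens 2 to 4. The log2 fold change was 1.10 (standard error 0.57, edgeR adjusted p = 0.236) with all libraries and 0.63 (standard error 0.16, edgeR adjusted p = 0.0339) without the pair. *Ciita*, the activator of class II genes, had 2038, 565, 512 and 536 in the wild types and 776, 738, 632 and 1434 in L2-fKO, and its log2 fold change was -0.03 (standard error 0.47, edgeR adjusted p = 0.978). Wild-type spleen 1 was 3.79 times the mean of the other 3 wild types, which lay close together. Without wild-type spleen 1 the sign turned, to 0.73 (edgeR adjusted p = 0.117). Without both libraries it was 0.41 (edgeR adjusted p = 0.0517).

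**Figure D4:**
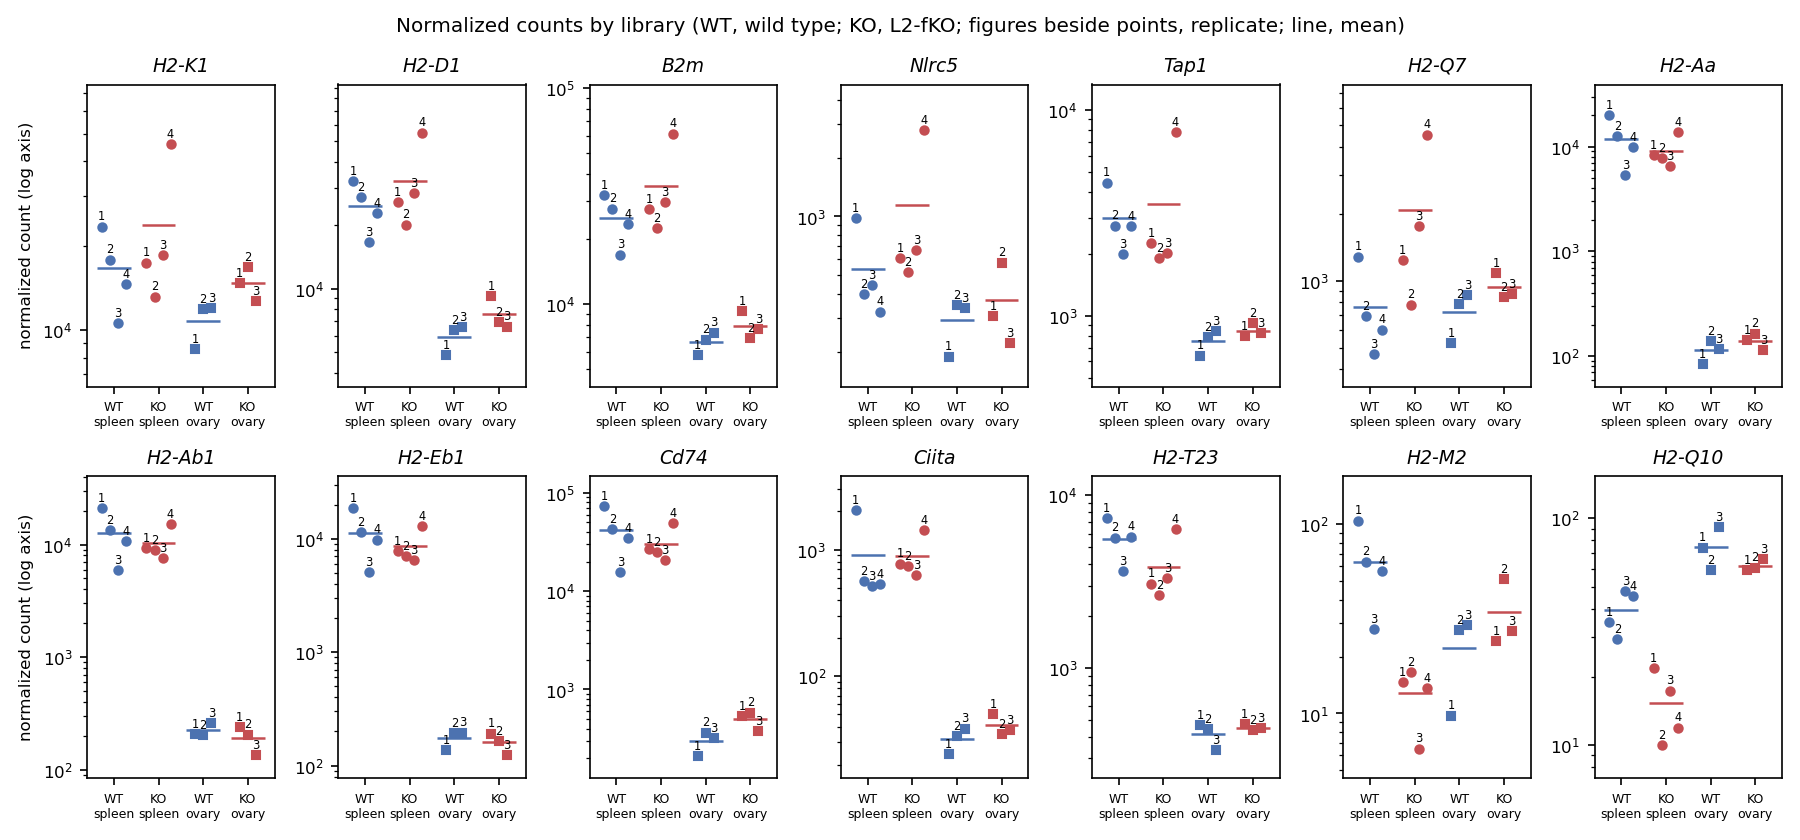
Normalized counts of 14 members in each library on log axes, in wild-type (blue) and L2-fKO (red) spleens (circles) and ovaries (squares), with replicate numbers beside the points and a line at each mean; the scales of the organs are not shared. L2-fKO spleen 4 is the highest L2-fKO spleen in 12 of the panels and not in those of *H2-M2* and *H2-Q10*, where all 4 L2-fKO spleens lie below the wild types.

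None of the 9 class II genes passed the test in the spleen, and for the main chains L2-fKO spleens 1 to 3 lay below 3 of the wild types and above the fourth. Fewer class II cells and less class II RNA per cell cannot be told apart in whole organs. *H2-Aa*, an alpha chain, had 19829, 12532, 5377 and 9917 in the wild types and 8228, 7758, 6525 and 13693 in L2-fKO (log2 fold change -0.40, edgeR adjusted p = 0.508). *H2-Ab1*, its beta chain, had 21037, 13383, 5973 and 10793 in the wild types and 9319.8, 8876, 7602 and 15295 in L2-fKO (log2 fold change -0.32, edgeR adjusted p = 0.587). *H2-Eb1*, the beta chain of the E molecule, had 18526, 11469, 5085 and 9800.5 in the wild types and 7779, 7061, 6475 and 12907 in L2-fKO (log2 fold change -0.39, edgeR adjusted p = 0.505). All of these 3 had the same 2 highest libraries, wild-type spleen 1 and L2-fKO spleen 4. *Cd74*, the invariant chain, had 73812, 42692, 15552 and 34444 in the wild types and 26683, 24999, 20863 and 49189.9 in L2-fKO (log2 fold change -0.45, standard error 0.42, edgeR adjusted p = 0.519). In all 4 genes the libraries fell in the same order, with wild-type spleen 1 at the top and wild-type spleen 3 at the bottom, so both ends were wild types and the L2-fKO spleens lay inside. Without wild-type spleen 1 and L2-fKO spleen 4 their log2 fold changes were -0.31, -0.23, -0.31 and -0.36, none past the threshold. *H2-Eb2*, a second E beta gene, had the lowest log2 fold change of the class, -1.11 (edgeR adjusted p = 0.105). The peptide exchange genes *H2-DMa*, *H2-DMb1* and *H2-DMb2* were at -0.42, 0.14 and -0.58, and the H2-O genes *H2-Oa* and *H2-Ob* at -0.72 and -0.69. About 27.2% of the windows of *H2-DMb1* occur in *H2-DMb2*.

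The summed class II counts were 72608, 45091, 20372 and 36739 in the wild types and 30070.0, 28075, 24526 and 50598 in L2-fKO, and the highest and lowest wild types were the same libraries as for the B cell sum given above. Divided by that B cell sum, class II was at 0.485, 0.605, 0.622 and 0.585 in wild-type spleens 1 to 4 and 0.388, 0.417, 0.474 and 0.397 in L2-fKO spleens 1 to 4, lower in each L2-fKO than in each wild-type spleen, with wild-type spleen 1 and L2-fKO spleen 3 close together. That order rested on 1 marker, *Ighm*, the heavy chain of IgM, which made up 41.5% to 48.3% of the B cell sum in wild type and 60.6% to 65.7% in L2-fKO. Against the sum of the other 11 markers, a setting chosen after seeing the data, class II was 82.9, 114, 120.3 and 108 percent of it in the wild types and 104, 106, 138 and 107 percent in L2-fKO, and the groups overlapped. Markers of other cells that carry class II gave values in both directions. For the counts that follow, 6.89% of all genes tested passed higher and 6.51% lower. Of the 11 dendritic cell markers, *Cd209a* fell (46.3 ± 8.60 against 2.53 ± 0.525, edgeR adjusted p = 5.19e-05) and *Batf3* rose (138 ± 27.1 against 268 ± 76.7, edgeR adjusted p = 0.0241), and the sums were 5467 to 9584 in wild types and 5136 to 11038 in L2-fKO. Of the 11 macrophage markers, *Adgre1*, *Cd5l* and *Mertk* rose and the sums were 43938 to 79946 and 77843 to 150327. Of the 5 plasma cell markers, *Jchain*, *Sdc1* and *Xbp1* rose, with sums of 5217 to 8287 and 11410.1 to 15502, and plasma cells are known to shut class II down. The part of these cells in the class II levels was not tested.

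Class II was set against class I within each library as the log2 ratio of the summed counts, which cancels the size of the library. The ratio was -0.07, -0.39, -0.87 and -0.47 in wild-type spleens 1 to 4 and -0.89, -0.61, -1.32 and -1.40 in L2-fKO spleens 1 to 4. The means were -0.45 ± 0.33 and -1.05 ± 0.37 (SD, n = 4), a difference of -0.60. The groups overlapped, since wild-type spleen 3 lay below L2-fKO spleen 2, and L2-fKO spleens 3 and 4 were the lowest of the 8. The difference kept its sign with each library left out, between -0.75 and -0.48. In L2-fKO spleen 4 the low ratio came with the highest class I sum of all (133335 against 76358, 59090.2, 37270.1 and 50940.0 in the wild types), and in L2-fKO spleen 3 with the lowest class II sum of its group. In the ovary the ratio was -5.04, -5.16 and -5.14 in wild-type ovaries 1 to 3 and -5.40, -5.51 and -5.64 in L2-fKO ovaries 1 to 3, a difference of -0.40, and each L2-fKO ovary was below each wild-type ovary. The ovary class II sums overlapped, at 559 to 712 in wild type and 511 to 749 in L2-fKO. The class I sums were higher in each L2-fKO ovary, at 25570 to 31534 against 18357 to 25052 in wild type. Most of the sum was *H2-K1* and *H2-D1*, with wild-type means of 10810 and 5933 beside 22598 for the sum. Each of these genes was also higher in each L2-fKO ovary, so the sum largely restates them. With *B2m* and *Cd74* added to the sums, the ovary difference shrank to -0.09 and the groups overlapped. These ratios are sums over members and were not tested.

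**Figure D5:**
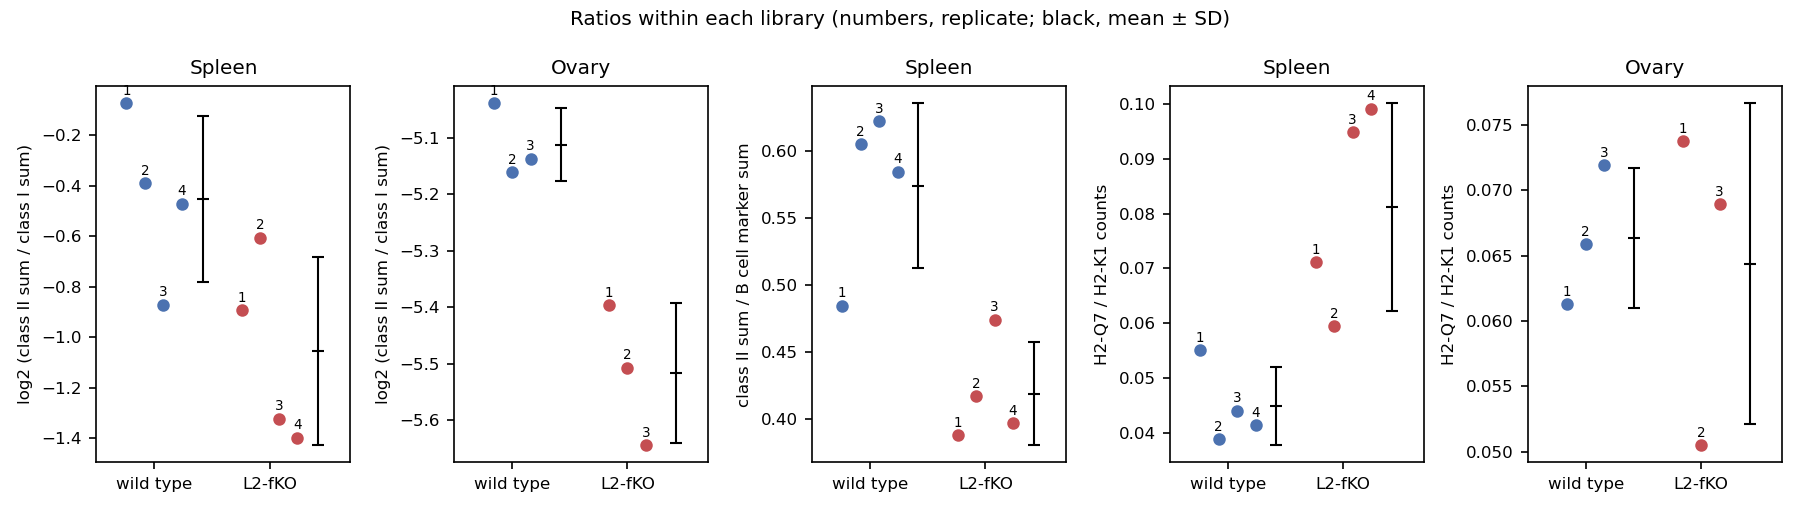
Ratios within each library, in spleen and ovary, with replicate numbers and the mean ± SD in black; the vertical axes do not start at 0. The class II to class I ratio is lower in L2-fKO, with overlap in the spleen (wild-type spleen 3 below L2-fKO spleen 2) and none in the ovary, and the *H2-Q7* to *H2-K1* ratio is higher in each L2-fKO spleen and overlaps in the ovary. In the ovary the class II sums themselves overlap and the class I sums are higher in each L2-fKO library. The ratio of class II to the B cell sum is lower in each L2-fKO spleen, an order that ends without *Ighm*.

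In the ovary, 35 members were in the table and passed the filter, a value of 10 or more in 3 or more of the 6 libraries. *H2-K2*, *H2-Eb2*, *H2-DMb2* and *H2-Ob* were not in the ovary table. None of the 35 had an adjusted p below 0.05 by limma on log2(value + 1), against 1.23% of the 18504 genes tested higher and 0.351% lower. Without adjustment 6 of the 35 had a limma p below 0.05, against 3114 of all 18504 genes tested. The edgeR test on the recovered reads passed 0. DESeq2 on them passed 1, *Cd74* (log2 fold change 0.74, DESeq2 adjusted p = 0.0476, against 4.38% of all genes higher by DESeq2). The smallest adjusted p was 0.135, for the pseudogene *H2-M6-ps*. The members' median log2 fold change was 0.19, beside -0.0042 for all genes, and fold changes of low genes are understated on this scale. Of the 35, 26 (74.3%) were above 0, beside 49.3% of all genes tested, and the members are not independent of each other. In 7 (20%) the lowest L2-fKO library was above the highest wild-type library, against 13.2% of all genes, and in 1 (2.86%) every one was below, against 12% of all. The 7 were *H2-K1*, *H2-D1*, *H2-Q5*, *H2-M5*, *H2-M6-ps*, *Psmb8* and *Cd74*, and the 1 was *H2-M3*, which presents N-formyl peptides of bacteria. With 3 animals against 3 no single gene can go below an exact permutation p of 0.1.

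Both classical class I genes were a little higher in each L2-fKO ovary. *H2-K1* had 8557, 11907 and 11967 in wild-type ovaries 1 to 3 and 14753, 16806 and 12688 in L2-fKO ovaries 1 to 3, and 0.46 as log2 fold change (standard error 0.16, limma adjusted p = 0.208). *H2-D1* had 4839, 6354 and 6606 in the wild types and 9227, 6965 and 6610.4 in L2-fKO, where wild-type ovary 3 and L2-fKO ovary 3 were almost equal (log2 fold change 0.35, limma adjusted p = 0.318). *B2m* had 5794, 6805 and 7336 in the wild types and 9210.2, 6933 and 7609 in L2-fKO (log2 fold change 0.25, limma adjusted p = 0.377). In *B2m* the groups overlapped, with L2-fKO ovary 1 the highest. *Tap1*, of the peptide transporter, had 639, 789 and 840.4 in the wild types and 797, 919 and 821 in L2-fKO (log2 fold change 0.17, limma adjusted p = 0.542). *Nlrc5* had 189, 348 and 335 in the wild types and 307, 577 and 222 in L2-fKO (log2 fold change 0.28, limma adjusted p = 0.748), with L2-fKO ovary 2 the highest and wild-type ovary 1 the lowest. *H2-M3* went the other way, from 335 to 384 in wild type and 248 to 324 in L2-fKO (log2 fold change -0.36, limma adjusted p = 0.268). Its ratio to *H2-K1* was 0.0391, 0.0323 and 0.0288 in the wild types and 0.0219, 0.0155 and 0.0196 in L2-fKO. That the ratio was lower in each L2-fKO ovary adds nothing new, since *H2-M3* was lower and *H2-K1* higher in each of them. *Psmb8* over *Psmb5*, per length, was 0.0124, 0.0145 and 0.0131 in the wild types and 0.0273, 0.0177 and 0.0168 in L2-fKO, the reverse direction, with L2-fKO ovary 1 the highest. In each L2-fKO ovary *Psmb8* was above and *Psmb5* below every wild type, so this ratio had to separate. *Psmb9* over *Psmb6* was 0.0138 to 0.0192 in wild type and 0.0161 to 0.0223 in L2-fKO, with overlap. *Psmb10* over *Psmb7* was 0.211 to 0.240 and 0.209 to 0.239, also with overlap. *H2-M2* and *H2-Q10*, the members that passed in the spleen, did not pass in the ovary. *H2-M2* had 9.73, 27.6 and 29.4 in the wild types and 24.1, 51.4 and 27.3 in L2-fKO (log2 fold change 0.67, limma adjusted p = 0.54), and *H2-Q10* had 74.2, 59.3 and 91.8 in the wild types and 59.0, 60.6 and 66.0 in L2-fKO (-0.25, limma adjusted p = 0.615). Whether the organs differ for these genes was not tested, because they were normalized apart and share an animal.

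*Cd74* had the highest log2 fold change among *Cd74* and the 6 class II genes of the ovary. It had 209, 365 and 321 in the wild types and 540.1, 583 and 378 in L2-fKO, each L2-fKO ovary above each wild type, and 0.76 as log2 fold change (standard error 0.25, limma adjusted p = 0.19). *H2-Ab1* had 208, 205 and 259 in the wild types and 239.7, 206 and 136 in L2-fKO (log2 fold change -0.24, limma adjusted p = 0.645) and *H2-Eb1* had 136, 194 and 195 in the wild types and 191, 165 and 124 in L2-fKO (-0.13, limma adjusted p = 0.808). For both beta chains L2-fKO ovary 3 was the lowest library and the groups overlapped. *H2-Aa*, the alpha chain, had 84.0, 140.4 and 117 in the wild types and 143, 164 and 114 in L2-fKO (0.31, limma adjusted p = 0.557), and *Ciita*, at 24.3, 33.4 and 38.5 in the wild types and 50.1, 34.9 and 37.6 in L2-fKO, was near the filter. Per length of all exons merged, *Cd74* was 1.54, 2.73 and 1.90 times *H2-Ab1* in the wild-type ovaries and 3.45, 4.34 and 4.27 times in the L2-fKO ovaries. Per length of the longest transcript the ratios were lower, 0.865, 1.53 and 1.07 and 1.94, 2.44 and 2.40, in the same order between the groups. In the spleen, per length of all exons merged, the same ratio was 3.98 to 5.37 in wild type and 4.20 to 4.92 in L2-fKO, with overlap. Some summed markers of blood cells were also higher in each L2-fKO ovary, and their order over the libraries matched that of *Cd74* only in part. The leukocyte sum and *Cd74* had the same order over the L2-fKO ovaries, and both were highest in wild-type ovary 2 among the wild types. Wild-type ovary 1 had the lowest *Cd74* and the highest macrophage sum of the wild types. The summed macrophage markers, of which none of the 10 tested passed, were 3698, 3254 and 3143 in the wild types and 5541, 4852 and 4213 in L2-fKO, and the summed leukocyte markers 765, 814 and 714 in the wild types and 1097, 1189 and 889 in L2-fKO. Of the 5 T cell markers tested *Cd4* rose (54.5 ± 7.13 against 245 ± 64.4, limma adjusted p = 0.00933), beside 1.23% of all genes higher. The groups overlapped in the summed B cell (248 to 305 in wild type, 304 to 491 in L2-fKO) and neutrophil markers (40.9 to 277, 24.1 to 79.7). They also overlapped in the summed erythroid markers (413 to 894, 548 to 994). The part of these cells in the *Cd74* level was not tested.

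The other genes of the pathway were counted from lists. Of all genes tested, 6.89% passed higher and 6.51% lower in the spleen, and 1.23% and 0.351% in the ovary. The single passes in the spleen lists of 14 and 16 genes are near that share. Of 14 genes of class I peptide loading, 1 passed higher in the spleen (*Calr*, a chaperone of the loading complex, log2 fold change 0.39, edgeR adjusted p = 0.0471) and 1 lower (*Npepps*, a cytosolic aminopeptidase, -0.38, edgeR adjusted p = 0.0187), and none in the ovary. Of 16 genes of class II loading and control, *Ctsl*, a protease of the endosome, passed higher in the spleen (0.57, edgeR adjusted p = 0.0224). In the ovary *Lgmn*, the asparaginyl protease (0.53, limma adjusted p = 0.0476), and *Ifi30*, a thiol reductase of the endosome (0.61, limma adjusted p = 0.0269), passed higher. *Lgmn* had 6581 ± 1765 against 10985 ± 2781 in wild-type and L2-fKO spleens (0.74, edgeR adjusted p = 0.062). Of the 5 class I-like genes tested outside the H2 locus, *Hfe*, which controls iron uptake, passed higher in the spleen (1228 ± 124 against 1879.6 ± 232, log2 fold change 0.61, edgeR adjusted p = 0.0109).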

How the data were processed

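Poly(A) RNA-seq covered 8 spleens, 4 per genotype, and 6 ovaries, 3 per genotype. For the spleen the authors deposited raw counts of unique exonic reads, counted by strand with featureCounts (Subread 1.5.2) after Trimmomatic 0.36 and STAR 2.5.2b on GRCm38. For the ovary, where the submitters' processing notes name the same tools, the authors deposited a normalized signal, gene counts divided by 1 size factor per library. All of these values were whole reads within 0.001. The authors' tables also hold symbols, used here, and the authors' fold changes and p-values from DESeq2, which were not used. Unique-read counting can lose reads of near-identical H2 genes.

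Spleen counts were tested with edgeR 4.0.16 (R 4.3.3, TMM, quasi-likelihood, at least 10 counts in 4 libraries, no covariate). Ovary values were tested with limma 3.58.1 (trend) on log2(value + 1), at least 10 in 3 libraries, and again with edgeR and DESeq2 1.42.0 on the recovered reads. Adjusted p-values are Benjamini-Hochberg over all genes tested, and called genes also have an absolute log2 fold change above 1. On simulated data the tests recovered the changed genes. How often they find fold changes as small as those of most members, or changes in genes near the filter, was not tested. Libraries are separate animals, sex differs within the spleen groups, and the labels give no batch. The organs were tested apart.

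The members, marker lists and pathway lists were chosen with earlier results of these data known. Values are given in every library for *H2-K1*, *H2-D1*, *B2m*, *Nlrc5*, *Tap1*, *H2-Aa*, *H2-Ab1*, *H2-Eb1*, *Cd74*, *Ciita* and each member with an adjusted p below 0.05, other members were to be named by class with a fold change or level, and list genes if they passed. *H2-Q7*, *H2-T23*, *H2-M3*, *Tap2*, *H2-Eb2*, the spleen value of *Lgmn* and the ratios of *H2-Q7*, *H2-M3* and *Psmb8* were singled out after their values were seen. Sequence shared between genes was counted over 50-base windows of the annotated transcripts (GENCODE M21, GRCm38).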

Additional observations from a re-analysis of the deposited data

Results flagged for a closer look

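In groups of 4 spleens, a library was taken to stand apart when the highest or lowest value was further from its neighbour than Dixon's 95% limit allows. Of 74 groups examined over the members, 16 had such a library, where chance gives about 1 in 20, and the members are not independent of each other. In 14 of the 16 it was L2-fKO spleen 4, each time as the highest value. Among the class I genes its normalized count was 45826 for *H2-K1*, 1042 for *H2-M3*, 534 for *H2-Q5*, 540 for *H2-T10* and 4048 for *H2-T22*. Among the genes of peptide supply it was 7826 for *Tap1*, 3693 for *Tap2*, 9496 for *Tapbp*, 3748 for *Erap1* and 3877 for *Psmb9*. It was 2799 for *Nlrc5*, the activator of class I genes. Among the genes of class II loading it was 2306 for *H2-DMa*, 1334 for *H2-DMb1* and 2014 for *H2-Ob*. Wild-type spleen 1 stood apart for *Ciita*, the activator of class II genes, at 2038. Wild-type spleen 4 stood apart for *H2-Q2* at 13.1, a count of few reads.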

How the results depend on the processing

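Of the values that answer a comparison, 120 alternatives kept the direction and side of the threshold and 18 moved, and of the named genes' fold changes 326 kept both, 19 reversed, 2 became significant and 3 lost significance. Without a filter on low counts 1 spleen member was higher (*H2-Q7*), also with the fold limit, and with at least 10 counts in every library 0 were lower, since *H2-M2* and *H2-Q10* were then not tested. In male libraries 1 was lower with or without the fold limit (*H2-M2*). Without wild-type spleen 1 and L2-fKO spleen 4, chosen after seeing the data, 2 were higher, 1 of them past the fold limit, and 4 lower. With each spleen left out in turn, 1 to 5 members were lower (of all genes 3.04% to 9.20% were lower; 1 member without wild-type spleen 4 or L2-fKO spleen 2, 5 without L2-fKO spleen 4, and 3 without wild-type spleen 3) and 1 to 3 past the fold limit. In the ovary DESeq2 gave 1 higher member (*Cd74*), and the class II to class I difference was -0.087 with *Cd74* and *B2m* added. The class II to class I difference with each library left out was -0.75 to -0.48 in the spleen and -0.46 to -0.34 in the ovary.

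The sign of some fold changes turned. *Ciita* in the spleen was 0.23 with sex as a covariate, 0.84 in males, 0.41 without both libraries and -0.35 to 0.73 with 1 library left out. *Tap1* was -0.27 without both libraries and -0.53 to 0.49 with 1 left out. The range with 1 library left out was -0.018 to 0.72 for *H2-K1* and -0.57 to 0.029 for *H2-Ab1* in the spleen, and -0.10 to 0.59 for *Nlrc5* and -0.30 to 0.042 for *H2-Eb1* in the ovary. The cause was not tested.

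Replicate numbers shared by the labels were not taken to pair the libraries, since not every correlation was over 0.1. The deviations of same-numbered spleens had correlations of -0.135, 0.094, 0.179 and 0.132 and those of ovaries 0.382, 0.211 and 0.072. Of the ovaries, 5 correlated best with their own number and wild-type ovary 3 with L2-fKO ovary 2 (0.184). With the replicate block as the labels print it, where 2 wild-type spleens are numbered 3 and L2-fKO spleen 4 has a number of its own and so no weight, 10 members were lower and 4 past the fold limit, while the share of all genes lower rose from 6.51% to 10.1%, and *H2-K1*, *H2-D1* and *Tap1* were at -0.022, -0.0020 and -0.54. With the second number 3 taken as 4 the replicate block gave 2 lower, and *Tap1* and *Ciita* were at -0.010 and 0.19. In the ovary the replicate block gave 0 members in either direction and raised the calls over all genes from 292 to 539.

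Counts below 10 in some libraries limit *H2-M2*, *H2-Q10* and *H2-Q2*, and the groups of 3 and 4 animals limit all tests.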

Other observations

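The annotation holds 17 more H2 genes that are in neither comparison table, and their raw spleen counts were near 0. *H2-Q1* had 4, 4, 7 and 10 in wild-type spleens 1 to 4 and 4, 5, 6 and 14 in L2-fKO spleens 1 to 4. The other 16 had at most 2 counts in any library. *H2-Ea-ps*, the E alpha gene that this annotation lists as a pseudogene, had 1 read in L2-fKO spleen 3 and 0 in the other 7 libraries, while *H2-Eb1*, whose product pairs with E alpha, had normalized counts of 5085 to 18526 in the wild types. *H2-M10.3*, *H2-M10.5-ps1* and *H2-M9* had no read in any of the 8 spleens.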
